A study of Homo sapiens with 4 samples.

Results

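The 9 genes described here encode the HLA class I heavy chains HLA-B, HLA-C, HLA-E and HLA-F, the light chain B2M, the peptide transport and docking proteins TAP1, TAP2 and TAPBP, and NLRC5, a transactivator of class I genes. They were chosen by name, with earlier results of these data known. Every probe on the array that carried one of these names was taken, which gave 15 of the 34127 distinct probes. The genes were measured in SAS cells, a line established from a tongue squamous cell carcinoma, after knockdown of MTDH (also called AEG-1 or LYRIC). SB cells had been given a lentiviral pLKO.1 vector that expresses the LYRIC shRNA-B. SCt cells, the control, carried the pLKO.1 vector in the sample labels, while the published methods name a scrambled shRNA. Puromycin at 2 μg/ml was used to select both populations over 14 days and was kept in the medium afterwards. Only this 1 shRNA was profiled, so an effect of its sequence on other transcripts cannot be told apart from the loss of MTDH. RNA of SB cells (red dye) and RNA of SCt cells (green dye), 15 μg for each labelling, were hybridized together on each of 4 arrays. The labels call the 4 arrays biological replicates, but nothing shows that they come from separate cultures, and the p-values below may then cover technical spread only. With 0 dye-swapped arrays, the preference of a single probe for 1 dye and an effect of the knockdown cannot be told apart.

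HLA class I molecules display peptides from inside the cell to CD8+ T cells, and inhibitory receptors of natural killer cells also recognize them. The proteasome cuts proteins into peptides, TAP1 and TAP2 together pump these into the endoplasmic reticulum, and TAPBP (tapasin) holds an empty class I molecule next to the pump until a peptide is bound. Each molecule consists of a polymorphic heavy chain and the invariant B2M, and interferons, NF-kB, RFX proteins and NLRC5 are known to drive transcription of these genes. Carcinomas can escape T cells by losing parts of this machinery.

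As a check of the labels, MTDH was lower in SB cells on all arrays, with log2 ratios of SB over SCt of −3.18, −3.01, −3.12 and −3.41 on arrays 1 to 4, that is 9.07-fold lower on average (limma, adjusted p = 5.19e-10). Between 84.7% and 90.3% of the non-control spots of a channel were well above background. All 10 squamous epithelial markers passed the filter on dim probes. The 7 leukocyte markers that had a probe passed it as well, so passing the filter was not taken as expression, and 3 of 6 fibroblast markers passed. None of these markers had an adjusted p under 0.05 in either direction (limma). Mean log2 ratios were −0.074 to 0.10 for the leukocyte markers and −0.28 to 0.14 for the squamous markers. At the brightest probe, the keratin KRT6A (−0.28 ± 0.27) and the integrin ITGA6 (−0.21 ± 0.23, n = 4) thus differed by about as much as HLA-B and HLA-C. Averaged over its probes, however, ITGA6 was −0.092 (adjusted p = 0.607, limma). Without array 4, KRT6A (−0.39, adjusted p = 0.000374) and ITGA6 (−0.30, adjusted p = 0.00743, limma) were called.

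Of the 9 genes, 2 were called at an adjusted p under 0.05, HLA-B and HLA-C, both lower in SB cells. That is 22.2% of the genes, beside 3.51% of all 23484 genes tested, with 2.26% called as lower and 1.26% as higher. The genes were chosen with earlier results of these data known. This and the later contrasts with all genes are therefore descriptions only, and no enrichment is read from them. At the level of probes, 14 of the 15 were tested and 3 were called, beside 3.7% of all probes tested. A gene is represented by its brightest probe that passed the filter, and p-values come from limma with Benjamini-Hochberg adjustment over all 28505 probes that passed. Probes with no matched gene symbol are counted among the 23484 genes under the name that the array gives them. The changes were small: HLA-B was 1.20-fold lower and HLA-C 1.19-fold lower, and 0 of the 9 genes reached the 2.5-fold difference that the published methods used. HLA-B, HLA-C, TAP2 and B2M had log2 ratios below 0 on all 4 arrays, which is 44.4% of the genes beside 12.3% of all genes with values on every array. The other 5, HLA-E, HLA-F, TAP1, TAPBP and NLRC5, had mixed signs. The median log2 ratio of the 9 genes was −0.11, compared with 0.013 over all genes tested. It was −0.058 without array 1 and −0.16 without array 4.

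**Figure D1:**
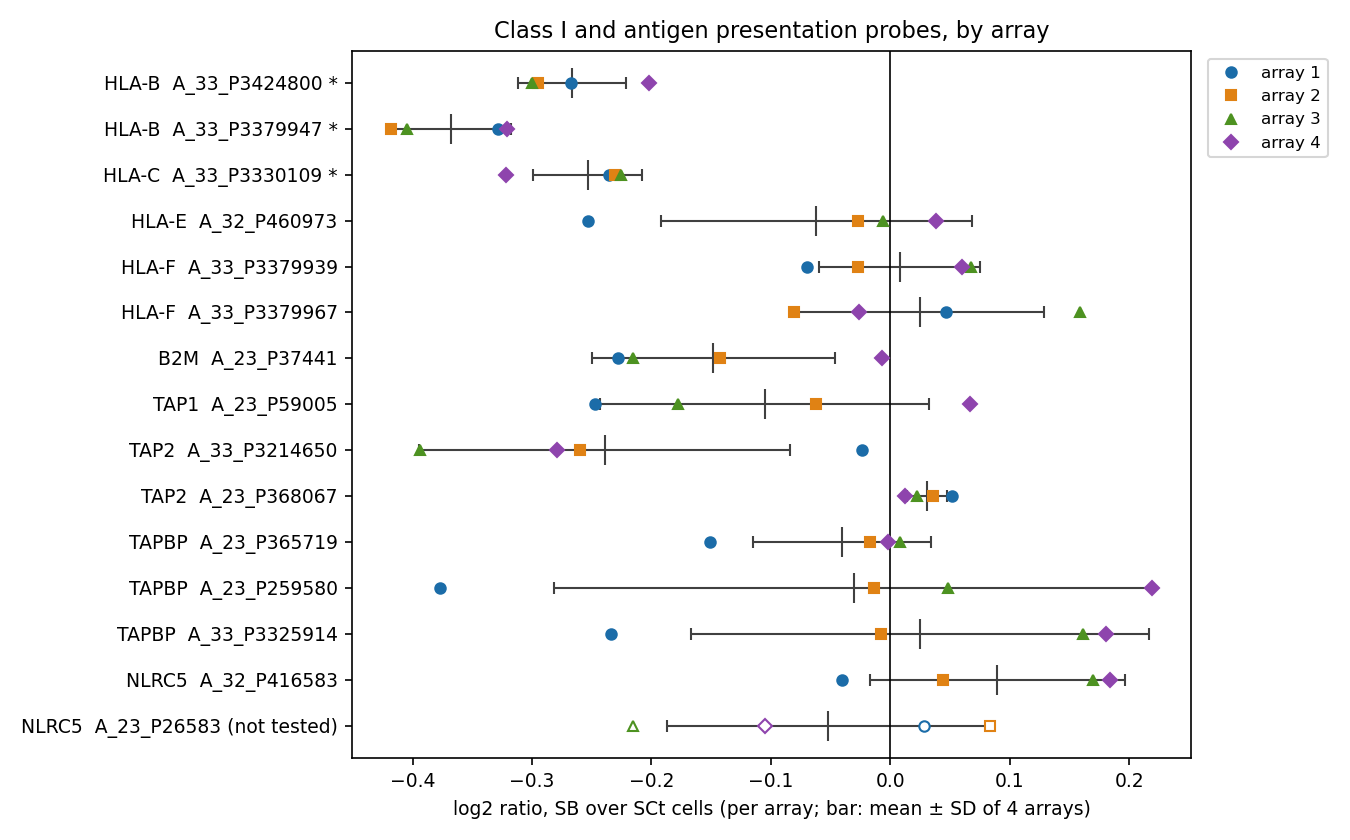
Log2 ratio of SB over SCt (horizontal axis) for each of the 15 probes, with 1 symbol per array and a bar for the mean ± SD of the 4 arrays. An asterisk marks the 3 probes with an adjusted p under 0.05, which are both HLA-B probes and the HLA-C probe, and open symbols mark the NLRC5 probe that did not pass the filter on dim probes. The HLA-B and HLA-C values lie between −0.42 and −0.20, while most other probes spread across 0.

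HLA-B and HLA-C are classical heavy chains, which present peptides to T cells and serve as ligands of killer cell receptors. At the brighter HLA-B probe (A_33_P3424800), the log2 ratios were −0.27, −0.30, −0.30 and −0.20 on arrays 1 to 4. All 4 lay below 0, with a mean of −0.27 ± 0.045 (SD, n = 4), an SE of 0.054, a 95% interval of −0.39 to −0.15 and an adjusted p of 0.0203 (limma). The other HLA-B probe (A_33_P3379947) gave −0.33, −0.42, −0.40 and −0.32. It was thus also below 0 on every array, with a mean of −0.37 ± 0.050 (n = 4), 1.29-fold lower, and an adjusted p of 0.00389 (limma). The HLA-C probe (A_33_P3330109) gave −0.24, −0.23, −0.23 and −0.32, a mean of −0.25 ± 0.046 (n = 4) with an SE of 0.054, an interval of −0.37 to −0.13 and an adjusted p of 0.0256 (limma). Arrays 1 to 3 agreed closely for HLA-C and array 4 was the lowest, whereas array 4 was the highest for HLA-B. The SDs between arrays of both genes were small beside the median SD of all tested probes, 0.11.

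Before normalization, the red (SB) median intensities of the brighter HLA-B probe were 2411, 3303.5, 4157 and 1960 on arrays 1 to 4, and the green (SCt) intensities were 1389, 2626.5, 3427 and 1398. The red channel was thus the brighter one on each array. The median over all non-control spots was also higher in the red channel, 655 to 875 compared with 362 to 588.5 in the green channel. The log2 ratios are relative to spots of like intensity on the same array, which is what loess normalization sets to 0. The HLA-C intensities were 1181, 1358.5, 1519 and 891 in red and 681, 1040.5, 1209 and 682.5 in green. Both genes kept a negative mean log2 ratio under every processing alternative that was run, between −0.32 and −0.16 for HLA-B and between −0.27 and −0.18 for HLA-C. For many alternatives this sign was fixed beforehand. Aquantile, the filters on dim probes and the other tests left both ratios unchanged. With all 4 arrays below 0, leaving 1 out cannot turn the mean. The series table gave the same means as the scanner software's ratios. The calls were less stable: each gene was called in 10 of 16 alternatives, and neither was called without array 1, without array 2, without array 3, with the series table or with the unmoderated test named in the methods. In addition, HLA-B was not called under median centring (−0.16, adjusted p = 0.0573) and HLA-C not with the scanner software's ratios (−0.26, adjusted p = 0.0560, limma). The second HLA-B probe was called in 14 of 15 alternatives. The heavy chain genes share much of their sequence and are polymorphic, and neither the probe sequences nor the HLA alleles of SAS cells were used here, so signal of 1 heavy chain at the probe of another was not tested.

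Promoter windows are shown so that the members that were called, HLA-B and HLA-C, can be set beside HLA-F and B2M, which were not called. The split follows the calls only. B2M and TAP2, whose window is not printed, were also below 0 on all 4 arrays. A window runs from 250 bases before to 50 bases after the start site (RefSeq, GRCh38.p14), and 7 of the 9 genes have one in the table used, 8 windows in all since TAP1 has more than 1; HLA-E and NLRC5 have none there. HLA-B lies on the minus strand at chr6:31357130-31357429, HLA-C on the minus strand at chr6:31272043-31272342, HLA-F on the plus strand at chr6:29723184-29723483, and B2M on the plus strand at chr15:44711267-44711566. Each is printed 5′ to 3′ along the gene, with capitals for matches, on either strand and with overlaps allowed, to GAAA, any 2 bases and GAAA (an interferon response element), GGGA, any 4 bases and CC (a kappa B type site), CCAAT (the Y box), TGACG (a CRE core, as in the X2 box) or TTCNNNGAA (a GAS site).
HLA-B: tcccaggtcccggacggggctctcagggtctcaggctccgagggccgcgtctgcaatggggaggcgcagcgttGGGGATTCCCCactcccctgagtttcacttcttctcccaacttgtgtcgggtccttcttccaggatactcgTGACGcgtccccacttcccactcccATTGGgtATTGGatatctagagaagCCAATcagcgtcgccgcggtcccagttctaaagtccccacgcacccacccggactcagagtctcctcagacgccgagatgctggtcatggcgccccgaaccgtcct
HLA-C: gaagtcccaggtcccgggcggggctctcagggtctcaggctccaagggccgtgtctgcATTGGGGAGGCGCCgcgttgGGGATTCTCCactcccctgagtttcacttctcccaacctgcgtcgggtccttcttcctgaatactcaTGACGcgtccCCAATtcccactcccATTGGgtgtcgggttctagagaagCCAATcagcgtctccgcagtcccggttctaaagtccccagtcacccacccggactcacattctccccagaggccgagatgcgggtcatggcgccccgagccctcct
HLA-F: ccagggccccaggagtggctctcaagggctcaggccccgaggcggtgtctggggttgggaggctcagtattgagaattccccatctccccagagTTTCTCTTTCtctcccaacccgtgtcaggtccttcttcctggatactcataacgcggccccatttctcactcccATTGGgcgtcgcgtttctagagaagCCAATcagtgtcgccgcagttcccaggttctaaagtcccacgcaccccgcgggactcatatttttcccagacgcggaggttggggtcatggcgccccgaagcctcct
B2M: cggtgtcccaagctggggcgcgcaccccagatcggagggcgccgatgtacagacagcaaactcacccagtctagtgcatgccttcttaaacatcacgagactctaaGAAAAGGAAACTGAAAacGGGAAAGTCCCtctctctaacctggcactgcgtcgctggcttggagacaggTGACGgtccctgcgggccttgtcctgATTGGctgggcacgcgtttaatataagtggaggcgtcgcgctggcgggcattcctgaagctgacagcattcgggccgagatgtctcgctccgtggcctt

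The HLA-B and HLA-C windows were 90.9% identical over 296 aligned bases, and those of HLA-B and HLA-F 80.8% over 297. Both HLA-B and HLA-C held 1 CRE core, 105 to 106 bases before the start site, and 2 kappa B type matches. In HLA-B these 2 are the same bases read on both strands, shifted by 1 base, between positions −177 and −167, whereas in HLA-C they lie at −188 to −179 and at −172 to −163. CCAAT occurred 3 times in HLA-B, 4 times in HLA-C and 2 times in HLA-F, and 34.6% of the 35116 windows of all genes held it. The HLA-F window held 1 match to the interferon letters and 0 to the kappa B type or CRE letters, while the HLA-B and HLA-C windows held 0 of the interferon letters. Only these exact letters were searched. A site that differs from them by 1 base is not marked, so a count of 0 does not show that a window lacks such an element. B2M had 2 overlapping interferon matches between −144 and −129, directly before 2 overlapping kappa B type matches between −126 and −116. Of the 7 genes with a window, 5 (HLA-F, B2M, TAP1, TAP2 and TAPBP) held the interferon letters, compared with 3.57% of all windows, and 5 held kappa B type letters, compared with 25.6%. The CRE core was found in 4 genes (24.6% of all windows) and the GAS letters in TAP1 only among the 7 (7.66% of all windows). These matches describe the letters of the windows and were not tied to the log2 ratios by a test.

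HLA-E and HLA-F are non-classical heavy chains. HLA-E shows leader peptides of other class I chains to the NKG2A receptor. Its probe (A_32_P460973) gave −0.25, −0.027, −0.0058 and 0.039 on arrays 1 to 4, so that array 1 alone stood well below 0. The mean was −0.062 ± 0.13 (n = 4), with an interval of −0.20 to 0.075 and an adjusted p of 0.651 (limma), and it turned to 0.0019 without array 1. The brighter HLA-F probe (A_33_P3379939) gave −0.070, −0.027, 0.068 and 0.060, a mean of 0.0078 ± 0.067 (n = 4) with an interval of −0.11 to 0.13 and an adjusted p of 0.960 (limma). The other HLA-F probe (A_33_P3379967) gave 0.047, −0.080, 0.16 and −0.026 and a mean of 0.025 ± 0.10 (n = 4). The arrays thus fell on both sides of 0 at both HLA-F probes. With median centring in place of loess, however, HLA-F was 0.22 and called as higher (adjusted p = 0.0206, limma), and HLA-E was 0.046.

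The called and the non-classical heavy chains were also set side by side within each array, as a description only. HLA-B and HLA-C are taken here because they were called. An exact sign-flip test on the 4 differences gave unadjusted p-values of 0.125 to 0.25. With 4 arrays it cannot go below 0.125, so nothing is drawn from it. HLA-B minus HLA-F was −0.20, −0.27, −0.37 and −0.26 on arrays 1 to 4, and HLA-C minus HLA-F was −0.17, −0.20, −0.29 and −0.38. HLA-B minus HLA-E was −0.015, −0.27, −0.29 and −0.24, and HLA-C minus HLA-E was below 0 on 3 of 4 arrays. The gap to HLA-E was narrowest on array 1, where HLA-E was about as low as HLA-B and HLA-C.

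B2M, the light chain that all class I molecules share, was spotted 10 times on each array (A_23_P37441). Its log2 ratios were −0.23, −0.14, −0.22 and −0.0067 on arrays 1 to 4, means over 8, 10, 10 and 8 usable spots. The spots of 1 array had an SD of 0.043 to 0.077, so the gap between array 4 and the other arrays was larger than the spread between spots. The mean was −0.15 ± 0.10 (n = 4), 1.11-fold lower, with an interval of −0.28 to −0.019. Its unadjusted p was 0.0283 and its adjusted p 0.201 (limma), so B2M was not called. Under median centring B2M had a log2 ratio of 0.0010, and without array 4 of −0.20.

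Of the peptide transport genes, none was called. TAP1 encodes the first chain of the peptide pump, and its probe (A_23_P59005) gave −0.25, −0.062, −0.18 and 0.067, a mean of −0.11 ± 0.14 (n = 4) with an interval of −0.24 to 0.034 and an adjusted p of 0.412 (limma). TAP2 encodes the second chain, and its brighter probe (A_33_P3214650) gave −0.024, −0.26, −0.39 and −0.28. Array 1 was near 0 and the other 3 arrays lay between −0.39 and −0.26, which gave a mean of −0.24 ± 0.16 (n = 4), 1.18-fold lower, with an interval of −0.38 to −0.094 and an adjusted p of 0.0738 (limma). TAP2 was called when array 1 was left out (−0.31, adjusted p = 0.0400, limma). The second TAP2 probe (A_23_P368067), with red intensities of only 105 to 134, gave 0.052, 0.036, 0.023 and 0.013 and a mean of 0.031 ± 0.017 (n = 4), so the probes of TAP2 disagreed in sign and their mean was −0.10. TAP1 and TAP2 differed in which arrays were low: array 1 was the lowest for TAP1 and the highest for the brighter TAP2 probe.

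TAPBP, the tapasin gene, had 3 probes. The brightest (A_23_P365719) gave −0.15, −0.017, 0.0079 and −0.0016, a mean of −0.040 ± 0.074 (n = 4) with an interval of −0.16 to 0.083 and an adjusted p of 0.759 (limma). The second (A_23_P259580) gave −0.38, −0.014, 0.049 and 0.22, and the third (A_33_P3325914) gave −0.23, −0.0079, 0.16 and 0.18. At all 3 probes array 1 was the lowest and the means stayed near 0, at −0.031 and 0.025 for the second and the third. Under median centring TAPBP was 0.11. NLRC5, which binds class I promoters as part of a complex with RFX proteins, was measured by 1 probe that passed the filter (A_32_P416583), at −0.040, 0.044, 0.17 and 0.18, a mean of 0.090 ± 0.11 (n = 4) with an interval of −0.041 to 0.22 and an adjusted p of 0.461 (limma). Its other probe (A_23_P26583) was well above background on 1 of 4 arrays in each channel and was not tested.

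**Figure D2:**
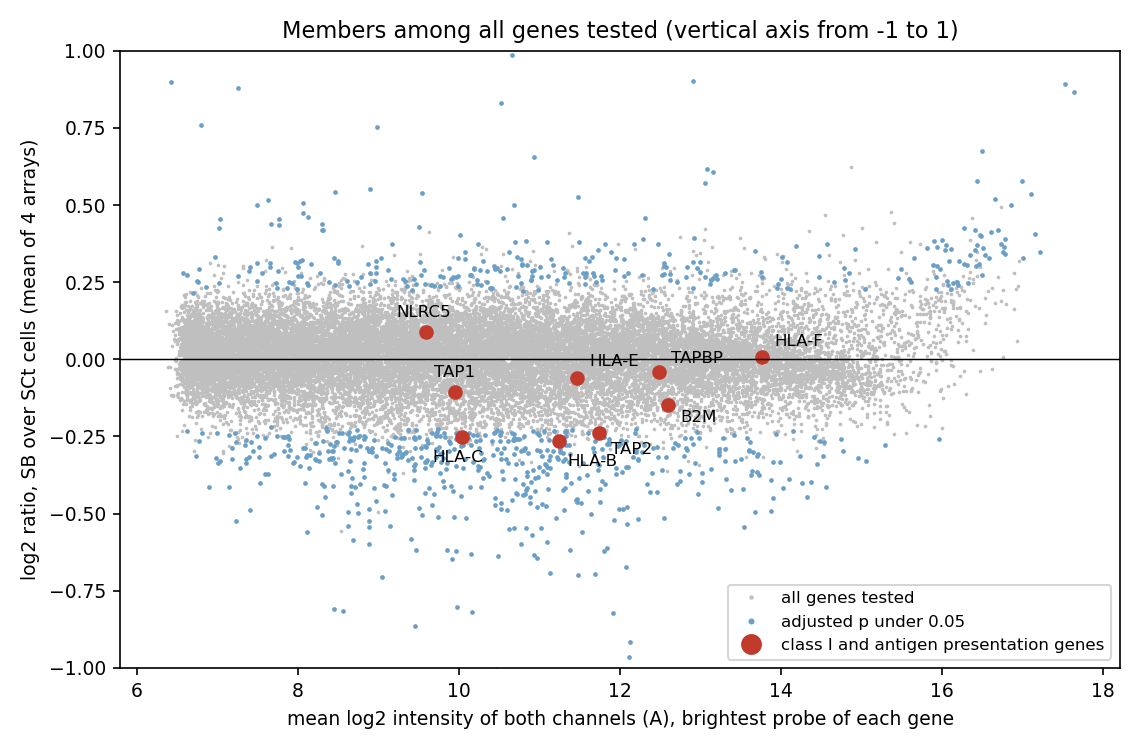
Mean log2 ratio of SB over SCt (vertical axis) against the mean log2 intensity of both channels (horizontal axis) for the brightest probe of each of 23484 genes, in grey, with genes at an adjusted p under 0.05 in blue and the 9 genes in red; 13 genes lie outside the vertical range. HLA-B, HLA-C and TAP2 sit at the upper edge of the blue genes that were lower, with HLA-B and HLA-C among them and TAP2 just short, and the other 6 sit in the grey band around 0.

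Array 1 was the lowest of the 4 for 6 of the 9 genes (26.7% of all genes with values on every array) and array 4 the highest for 5 (26.9% of all genes). HLA-B and TAP2 were lowest on array 3 and HLA-C on array 4. The median over the 9 genes was −0.23, −0.062, −0.18 and −0.0016 on arrays 1 to 4, while the median over all genes tested stayed between 0.0028 and 0.025. The ratios of HLA-B and HLA-C varied least, with SDs of 0.045 and 0.046 compared with up to 0.16 for TAP2. Over the 4 log2 ratios, the genes with the smallest Euclidean distance to HLA-B were APOBEC3C (0.039), UBR3 (0.052) and CALHM3 (0.066). Those closest to HLA-C were PLD2 (0.044), a probe with no gene name here (A_33_P3261438, 0.057) and SCLY (0.063). None of these belongs to the lists of antigen presentation genes, and likeness over 4 arrays is a description only.

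The other genes of the pathway, 53 in 6 lists, were read at the same threshold. Of the 50 that were tested, 1 was called as lower and 0 as higher (3.51% of all genes were called in either direction). Of the 50, 33 had a mean below 0 and 17 above 0, with a median of −0.046. Of all 23484 genes tested, 10480 were below 0 and 13004 above 0, with a median of 0.013. These background values also belong beside the counts of each list below. The 1 called gene was IRF9, the DNA-binding subunit of the factor that carries the type I interferon signal to the nucleus. IRF9 had log2 ratios of −0.44, −0.26, −0.39 and −0.19 on arrays 1 to 4. It was below 0 on every array, with a mean of −0.32 ± 0.12 (n = 4) and an adjusted p of 0.0138 (limma), but was not called without array 1, without array 2 or without array 3.

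Among the other class I and class I-like genes, 11 of 14 were tested and 0 called, with a median of 0.029. HLA-G had a mean of 0.040 ± 0.059 (n = 4), and RAET1E, a ligand of the NKG2D receptor, −0.18 ± 0.11 (n = 4, adjusted p = 0.130, limma).

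In the immunoproteasome list, 0 of 6 genes were called, 5 had a mean below 0 and the median was −0.12. PSMB9, an interferon-inducible catalytic subunit, had log2 ratios of 0.091, 0.17, 0.63 and 0.38. It was above 0 on all 4 arrays, with a mean of 0.32 ± 0.24 (n = 4) and an adjusted p of 0.0546 (limma). PSMB9 was called without array 1 (0.39, adjusted p = 0.0402), without array 4 (0.30, adjusted p = 0.0155) and under median centring (0.79, adjusted p = 0.000255, limma), while the scanner software's ratios and the series table gave 0.15. The PSMB9 gene adjoins TAP1 on chromosome 6, yet their means had opposite signs. The mean log2 intensity was 16.96 at the PSMB9 probe and 9.95 at the TAP1 probe, and the part of intensity in this contrast was not tested. POMP, which assists assembly of the proteasome, had a mean of −0.22 ± 0.14 (n = 4, adjusted p = 0.0869, limma). Of the constitutive counterparts, 0 of 3 were called, with PSMB6 at −0.022 and PSMB7 at 0.0081; PSMB6 was 0.23 under median centring.

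In the list of peptide loading and trimming, 0 of 8 genes were called, and the median was −0.031. PDIA3, the disulphide isomerase of the loading complex, had a mean of 0.16 ± 0.17 (n = 4, adjusted p = 0.226, limma). The chaperone CANX had 0.11 ± 0.35 (n = 4, adjusted p = 0.638, limma), a mean that rested on array 4, where it was 0.63 while the other arrays lay between −0.11 and 0.0085. Averaged over the probes of each gene, PDIA3 was 0.023 and CANX 0.013. Among the 15 transcription regulators, 12 had a mean below 0 and 1 was called, with a median of −0.096. NFYA, a subunit of the CCAAT-binding factor NF-Y, had a mean of −0.19 ± 0.13 (n = 4, adjusted p = 0.121, limma), and −0.098 averaged over its probes. Of the 7 interferon receptors and kinases, 0 were called, and IFNGR2 at −0.20 ± 0.12 (adjusted p = 0.106) and TYK2 at −0.16 ± 0.21 (adjusted p = 0.281, limma, n = 4) had the largest differences.

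**Figure D3:**
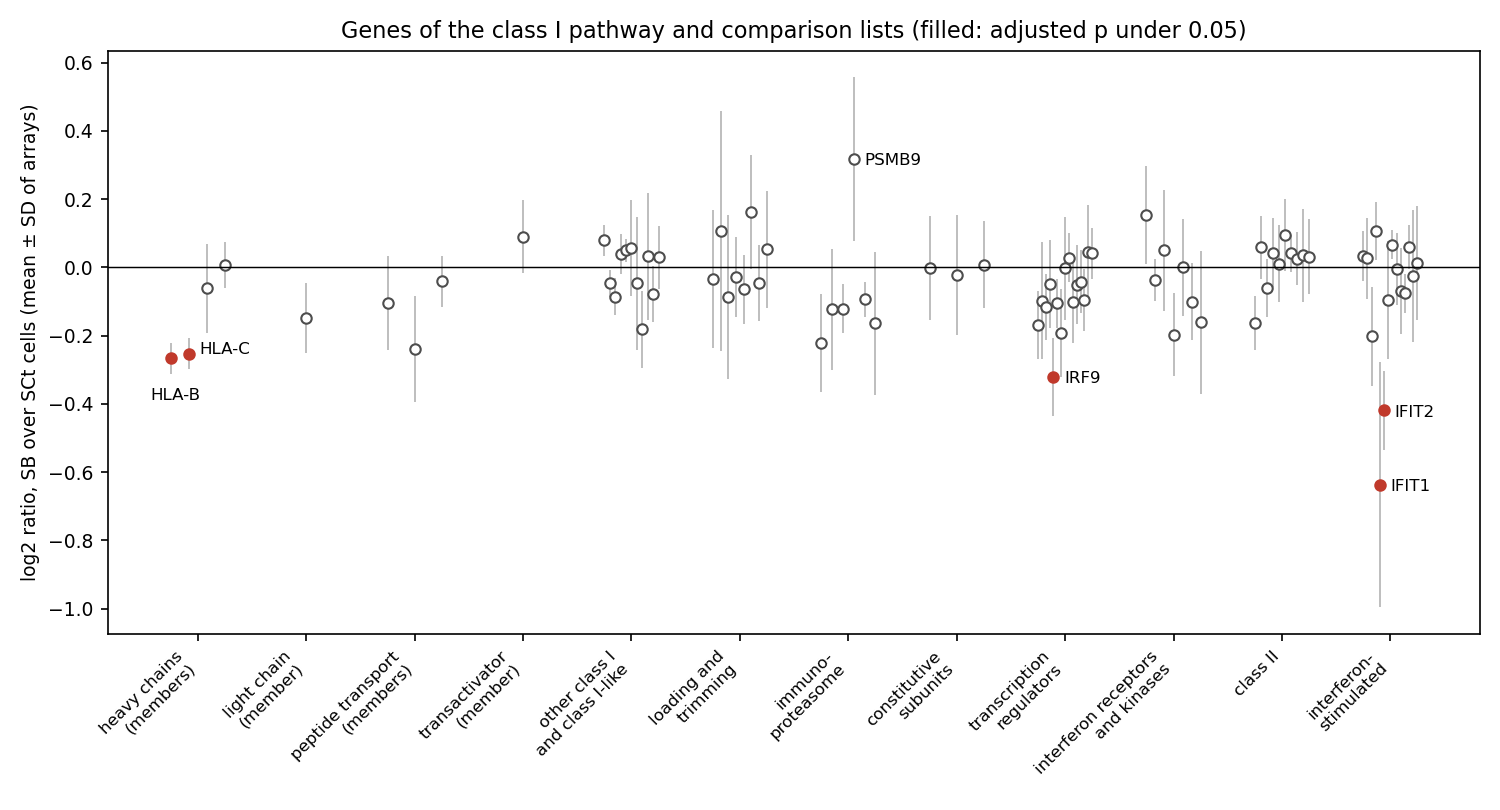
Mean log2 ratio of SB over SCt (vertical axis, bars are SD between arrays) for each tested gene of the class I pathway and of 2 comparison lists, by list along the horizontal axis. Filled symbols have an adjusted p under 0.05: HLA-B, HLA-C, IRF9, IFIT1 and IFIT2 are filled, all below 0, and PSMB9, the highest point, is open.

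In the class II list, which serves CD4+ T cells, 10 of 12 genes were tested and 0 called, with a median of 0.033. CD74, the invariant chain, had a mean of −0.16 ± 0.079 (n = 4, adjusted p = 0.148, limma) and HLA-DPA1 0.094 ± 0.11 (n = 4). HLA-DRA and HLA-DMB were well above background on 0 arrays. Of the interferon-stimulated comparison genes, 14 of 16 were tested and 2 called, both lower (2.26% of all genes were called as lower). IFIT2 had log2 ratios of −0.55, −0.35, −0.30 and −0.48, a mean of −0.42 ± 0.12 (n = 4, adjusted p = 0.00340, limma). When averaged over its probes, IFIT2 was −0.31 (adjusted p = 0.0204, limma). IFIT1 had −0.42, −0.49, −0.46 and −1.17, a mean of −0.64 ± 0.36 (n = 4, adjusted p = 0.00735, limma), with array 4 far below the others. Both bind viral RNA in the antiviral response, and the median of the list was −0.015, with 8 genes below 0 and 6 above 0. The part of a differing interferon response in the HLA-B and HLA-C values was not tested.

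**Figure D4:**
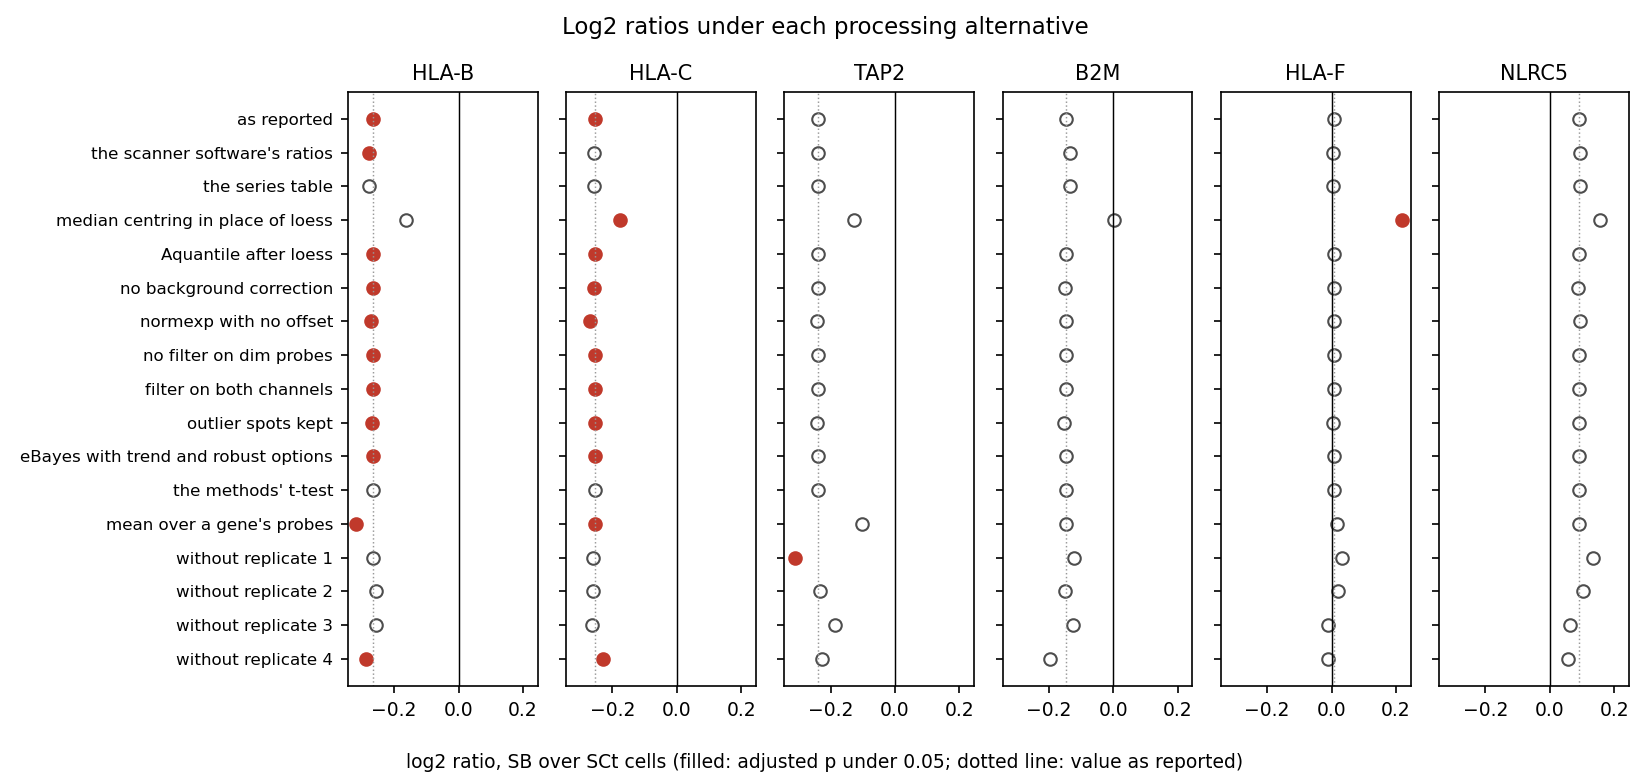
Mean log2 ratio of SB over SCt (horizontal axis of each panel) for 6 of the 9 genes as reported and under each of 16 processing alternatives (vertical axis); filled symbols have an adjusted p under 0.05 and the dotted line is the value as reported. HLA-B and HLA-C stay left of 0 in each row, while median centring in place of loess moves all 6 to the right and places HLA-F at 0.22.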

How the data were processed

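Red (SB) and green (SCt) RNA was read on 4 dual-channel Agilent arrays on 1 slide in 1 scan. The authors deposited, per array, the Feature Extraction 10.5.1.1 output, whose median intensities and local backgrounds are linear and not normalized, with the software's own ratio on a log10 scale. The authors also deposited a series table on a log2 scale, SB over SCt; 97.6% to 97.9% of its probes equalled the software's processed ratio to within 0.001, and its column medians were −0.017 to 0.022.

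Computations used limma 3.58.1 (R 4.3.3). Normexp with an offset of 50 was applied to all 44495 spots of an array. The 1377 control spots and 814 to 1168 outlier spots per array were left out (0 were saturated), ratios were loess-normalized within arrays, and spots of a probe were averaged. A probe was tested if 1 channel was well above background on every array and at least 2 arrays had values, which left 28505 of 34127. Means were tested against 0 (lmFit, eBayes) with Benjamini-Hochberg adjustment over these 28505 probes. A gene's brightest tested probe represents it. Accessions were matched to RefSeq (GRCh38.p14): 24826 probes got a symbol and 9301 did not. Tested probes without a symbol were counted as genes under the name that the array gives them. The number of arrays, 4, limits the precision. On simulated data, 7 of 50 probes changed by 0.25 on the log2 scale were called in the right direction, and 40 of 50 changed by 0.5. A gene that was not called can thus still differ by as much as HLA-B and HLA-C did. The simulation had fewer calls than the data, 149 probes compared with 1055. The adjustment therefore set a stricter limit on the unadjusted p there, and the simulated shares may be too low for these data.

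The genes and lists were chosen with earlier results of these data known. Named are all 9 genes at every probe, MTDH, the called genes of each list or, where fewer than 2 were called, its 2 largest log2 ratios, and the 3 genes nearest to each called gene. 1 gene that this rule names is not reported here. HLA-G, HLA-DRA and HLA-DMB were added after their values were seen. Motifs were searched in Python 3.11.15, and windows were aligned with Biopython 1.88. Alternatives covered normalization (median centring, Aquantile, the scanner software's values, the series table), background correction, filters on dim and outlier spots, the test (trend and robust eBayes, the methods' t-test), averaging of a gene's probes and each array left out.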

Additional observations from a re-analysis of the deposited data

Results flagged for a closer look

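At 5 of the 37 probes of named genes looked at, 1 array lay apart from the other 3. The limit was Dixon's 95% limit for 4 values, with the gap to the nearest array as a share of the whole range. Chance marks about 5% of groups that were not picked by their values. Part of the 37 probes were picked by them, since their genes were named for a call or a large mean log2 ratio. A single distant array can enlarge such a mean, so no excess over 5% is read from the 5 probes. HLA-C had a gap share of 0.898, with array 4 at −0.32 and the others between −0.24 and −0.23. TAPBP had 0.845, with array 1 at −0.15 and the others between −0.017 and 0.0079. CANX had 0.836, with array 4 at 0.63 and the others between −0.11 and 0.0085. IFIT1 had 0.909, with array 4 at −1.17 and the others between −0.49 and −0.42. NKG7, a leukocyte marker, had 0.944, with array 3 at 0.56 and the others between −0.068 and −0.033. Array 4 was the distant one for HLA-C, CANX and IFIT1, and it also had the most outlier spots, 1168; the part of array quality in these values was not tested.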

How the results depend on the processing

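HLA-B and HLA-C kept their sign under all 16 alternatives and HLA-B's second probe under all 15 of its own. Many of these alternatives could not turn a sign. They left the ratios unchanged, or left out 1 of 4 arrays that were all below 0. Each log2 ratio already pairs SB and SCt RNA within an array, and with 1 group of arrays no further replicate block could be fitted. The series table gave 698 probes called and 0 of the 9 genes (HLA-B −0.28, adjusted p = 0.0547; HLA-C −0.26, adjusted p = 0.0603, limma), and the software's ratios 1 of the 9 (HLA-B; HLA-C −0.26, adjusted p = 0.0560). Median centring, which leaves the dependence of the ratio on intensity in place, gave 8817 probes (5433 higher and 3384 lower, compared with 376 and 679 under loess), 12 pathway genes, a median of 0.0010 over the 9 genes and of 0.069 over all genes, and HLA-B at −0.16 (adjusted p = 0.0573). It also turned the sign of HLA-E (0.046), B2M (0.0010), TAPBP (0.11) and PSMB6 (0.23), and called HLA-F as higher (0.22). The methods' t-test left 0 probes called after adjustment (unadjusted p under 0.05 in 3936), 0 of the 9 genes (2 unadjusted), 0 pathway genes (8 unadjusted), and none of MTDH (−3.18, adjusted p = 0.143), HLA-B (−0.27, adjusted p = 0.187) and HLA-C (−0.25, adjusted p = 0.190). Leaving out 1 array gave 204 (without array 3) to 1991 probes (without array 4), with 640 without array 1 and 431 without array 2. It gave 0 to 2 of the 9 genes (0 without array 2 or array 3, TAP2 alone without array 1) and 0 to 4 pathway genes. The median of the 9 genes ranged from −0.16 to −0.058, HLA-B from −0.29 to −0.26 and HLA-C from −0.26 to −0.23. Signs turned in HLA-E (−0.095 to 0.0019), HLA-F (−0.012 to 0.034), CANX (−0.068 to 0.18), PSMB6 (−0.080 to 0.030), PSMB7 (−0.029 to 0.046), NKG7 (−0.048 to 0.16) and COL1A1 (−0.032 to 0.098). IRF9 was not called without array 1, 2 or 3 (−0.34 to −0.28), nor IFIT1 without array 3 or with trend and robust options. The cause of these shifts was not tested. The 95% intervals of the 9 genes, set by 4 arrays, reached at most 0.39 from 0 on the log2 scale.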
